A study of Mus musculus with 22 samples.

Results

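Fatty acid oxidation was followed through 10 mouse genes: the carnitine palmitoyltransferases Cpt1a, Cpt1b and Cpt2, the acyl-CoA dehydrogenases Acadvl, Acadl and Acadm, the trifunctional protein subunits Hadha and Hadhb, the thiolase Acaa2, and the pyruvate dehydrogenase kinase Pdk4. They were chosen by gene name, and all 10 were found among the 34378 gene names of the normalized table deposited for the series. RNA came from cultured CF (cardiac fibroblasts) of the CD1 mouse strain with the genotype aMHC-GFP, a green fluorescent reporter under the promoter of the cardiac alpha myosin heavy chain, which every group carried. The cells were transduced with a retrovirus that carries Mef2c, Gata4 and Tbx5 on 1 polycistronic transgene (MGT), or with a lacZ retrovirus as the control, and were lysed 3, 5, 7, 10 or 14 days later. Fibroblasts labelled day 0, for which no virus is named, made up the last group. This gave 11 groups of 2 samples, each on 1 Agilent 1-colour array, 22 arrays in all. No sort for the reporter is named in the labels, so each value is the RNA of a whole culture, and fewer cells of a type and less RNA per cell cannot be told apart.

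Long-chain fatty acids enter mitochondria as carnitine esters. A Cpt1 enzyme on the outer membrane makes the ester (Cpt1a is the form of liver and many other tissues, Cpt1b the form of muscle and heart), and Cpt2 on the inner membrane turns it back into acyl-CoA. Each round of beta-oxidation then takes an acyl-CoA dehydrogenase, a hydratase, a second dehydrogenase and a thiolase, and shortens the chain by an acetyl unit. Adult heart muscle draws most of its energy from this pathway. Pdk4 is not an enzyme of beta-oxidation. It phosphorylates and inhibits the pyruvate dehydrogenase complex, which holds glucose carbon back while fatty acids are burnt, and it is a standard target gene of PPAR nuclear receptors.

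With MGT the last enzyme of the spiral and the pyruvate dehydrogenase kinase stood far above lacZ on every day. Averaged over the 5 days, Acaa2 was 3.41-fold and Pdk4 3.20-fold the lacZ level, Acadl 1.84-fold and Acadm 1.38-fold. Cpt1b, a dim gene here, was 1.31-fold the lacZ level. Cpt1a was lower, at 0.883 of the lacZ level. Hadha and Hadhb were higher by 0.087 and 0.096 on the log2 scale, and Acadvl and Cpt2 did not pass the test. In all, 7 of the 10 genes were higher and 1 was lower (limma, Benjamini-Hochberg adjusted p under 0.05). The call of Hadha was lost in 14 of 34 other settings, among them the removal of any 1 of 10 arrays. Of all 18060 genes tested in this comparison 63.9% were called, 23.2% as higher and 40.7% as lower, so a call in itself was common. The median difference of the 10 genes was 0.26 on the log2 scale, against -0.09 for all genes. The share of higher among all calls was 36.4%, and 49.2% when arrays were scaled over probes above background on every array.

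Promoters are shown for members called higher with MGT than with lacZ on all 5 days, as far as they are printed here. That of Cpt1a, the 1 member called lower than lacZ in the averaged comparison, is shown too. Each is the 250 bases before the start site, from RefSeq on GRCm38.p6, written 5′ to 3′ on the strand of the gene. Capitals mark a match, on either strand, to the half-site of many nuclear receptors or to a GATA motif, both spelled out after the sequences. Pdk4 lies at chr6:5496279-5496528 (minus), Acadl at chr1:66863310-66863559 (minus), Acadm at chr3:153944644-153944893 (minus) and Cpt1a at chr19:3323051-3323300 (plus).
Pdk4: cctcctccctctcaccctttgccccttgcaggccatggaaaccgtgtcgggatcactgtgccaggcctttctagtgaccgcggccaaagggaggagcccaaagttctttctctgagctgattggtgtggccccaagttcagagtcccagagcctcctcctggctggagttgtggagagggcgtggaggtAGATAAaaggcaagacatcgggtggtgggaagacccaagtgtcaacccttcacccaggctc
Acadl: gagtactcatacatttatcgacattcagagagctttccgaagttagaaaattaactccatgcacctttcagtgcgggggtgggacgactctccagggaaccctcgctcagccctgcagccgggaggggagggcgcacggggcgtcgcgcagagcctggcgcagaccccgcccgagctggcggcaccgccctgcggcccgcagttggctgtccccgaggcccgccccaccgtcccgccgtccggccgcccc
Acadm: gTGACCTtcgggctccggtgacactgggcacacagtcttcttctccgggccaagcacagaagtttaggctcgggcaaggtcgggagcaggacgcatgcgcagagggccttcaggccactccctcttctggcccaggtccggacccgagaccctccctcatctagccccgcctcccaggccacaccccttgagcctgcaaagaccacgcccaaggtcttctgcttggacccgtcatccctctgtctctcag
Cpt1a: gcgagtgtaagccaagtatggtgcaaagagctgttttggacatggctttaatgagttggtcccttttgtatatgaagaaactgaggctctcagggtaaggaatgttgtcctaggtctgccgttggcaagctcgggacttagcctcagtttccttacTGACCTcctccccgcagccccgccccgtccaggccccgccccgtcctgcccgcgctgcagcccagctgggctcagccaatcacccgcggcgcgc

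The Pdk4 promoter held the GATA motif AGATAA at positions -61 to -56, counted back from -1, the base before the start site, and not the half-site AGGTCA. The Acadm promoter held the half-site on the opposite strand at positions -249 to -244, and the Cpt1a promoter held it on the opposite strand at positions -94 to -89. The Acadl promoter held neither. Acadvl, whose averaged difference did not pass and whose sequence is not printed, held both. Its AGGTCA lay at positions -87 to -82 and its AGATAA on the opposite strand at positions -189 to -184. The windows of Cpt2, Hadha and Hadhb held neither. Of 32851 mouse promoter windows of this length 14% held AGGTCA and 9.99% held AGATAA, so single matches are common. The longer motifs searched were the PPAR direct repeat, which is 2 copies of the half-site with any 1 base between them (0.0335% of windows), TCAAGGTCA for oestrogen-related receptors (0.387%), the MEF2 core of CTA, any 4 bases and TAG (3.2%), AGGTGTGA for T-box factors (1.12%) and GTAAACA for FOXO factors (3.17%). The repeat and the oestrogen-related receptor motif both contain the half-site, and both strands were searched for each. None of these 5 was found in the windows of the 8 members searched. Among these, Hadha and Hadhb are transcribed away from each other from start sites 273 bases apart.

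Levels below are log2 of the processed spot intensity relative to the 75th percentile of the same array, so that 0 means as bright as that percentile, and levels of different genes are not compared. The Mef2c probe read from -0.06 to 2.95 on the 10 MGT arrays and from -4.13 to -1.74 on the 10 lacZ arrays, so the arms did not overlap in 1 of the factors the virus carries. Markers were counted in the comparison averaged over the 5 days, in which 23.2% of all genes were called higher and 40.7% lower. All 10 cardiomyocyte markers passed as higher with MGT, led by Myl7 (9.65 on the log2 scale) and Actc1 (8.69). The log2 of the summed level of all 10 was 8.42 to 9.80 with MGT and 3.74 to 5.91 with lacZ. Of 10 fibroblast markers 9 were lower and 1 was higher, with summed levels of 9.01 to 9.87 with MGT and 9.90 to 10.73 with lacZ. They were above background on every array, so markers of the labelled cell type were present throughout. Of 9 measured skeletal muscle markers 7 were higher and 1 lower (summed 5.80 to 6.66 and 3.79 to 5.26), and of 10 endothelial markers 1 was higher and 7 lower (3.93 to 4.99 and 3.98 to 5.36). The 10 macrophage markers had adjusted p of 0.0896 or more (4.41 to 7.70 and 4.09 to 8.34). Among 10 adipocyte markers, cells that also burn and store fat, 6 were measured and 2 were higher and 1 lower (0.76 to 2.83 and 1.20 to 2.98). The defining adipocyte genes Adipoq and Cidec were above background on 0 of 22 arrays and Plin1 on 1. The part of the muscle and fibroblast markers in the differences below was not tested.

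Each group lay on 1 slide of arrays. The MGT and lacZ arrays of days 3 and 5 shared a slide, as did those of days 7 and 10. At day 14 the MGT arrays lay on a slide of their own and the lacZ arrays shared a slide with day 0, so slide and virus cannot be told apart on that day. The median absolute difference between the 2 arrays of a group was 0.14 to 0.41 on the log2 scale over all spots, and 0.89 in day 14 lacZ, whose second array was also the dimmest. Nothing in the labels says that the 2 samples of a group came from separate cultures or mice, so the p-values measure how far these samples spread, and that spread may be technical.

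**Figure D1:**
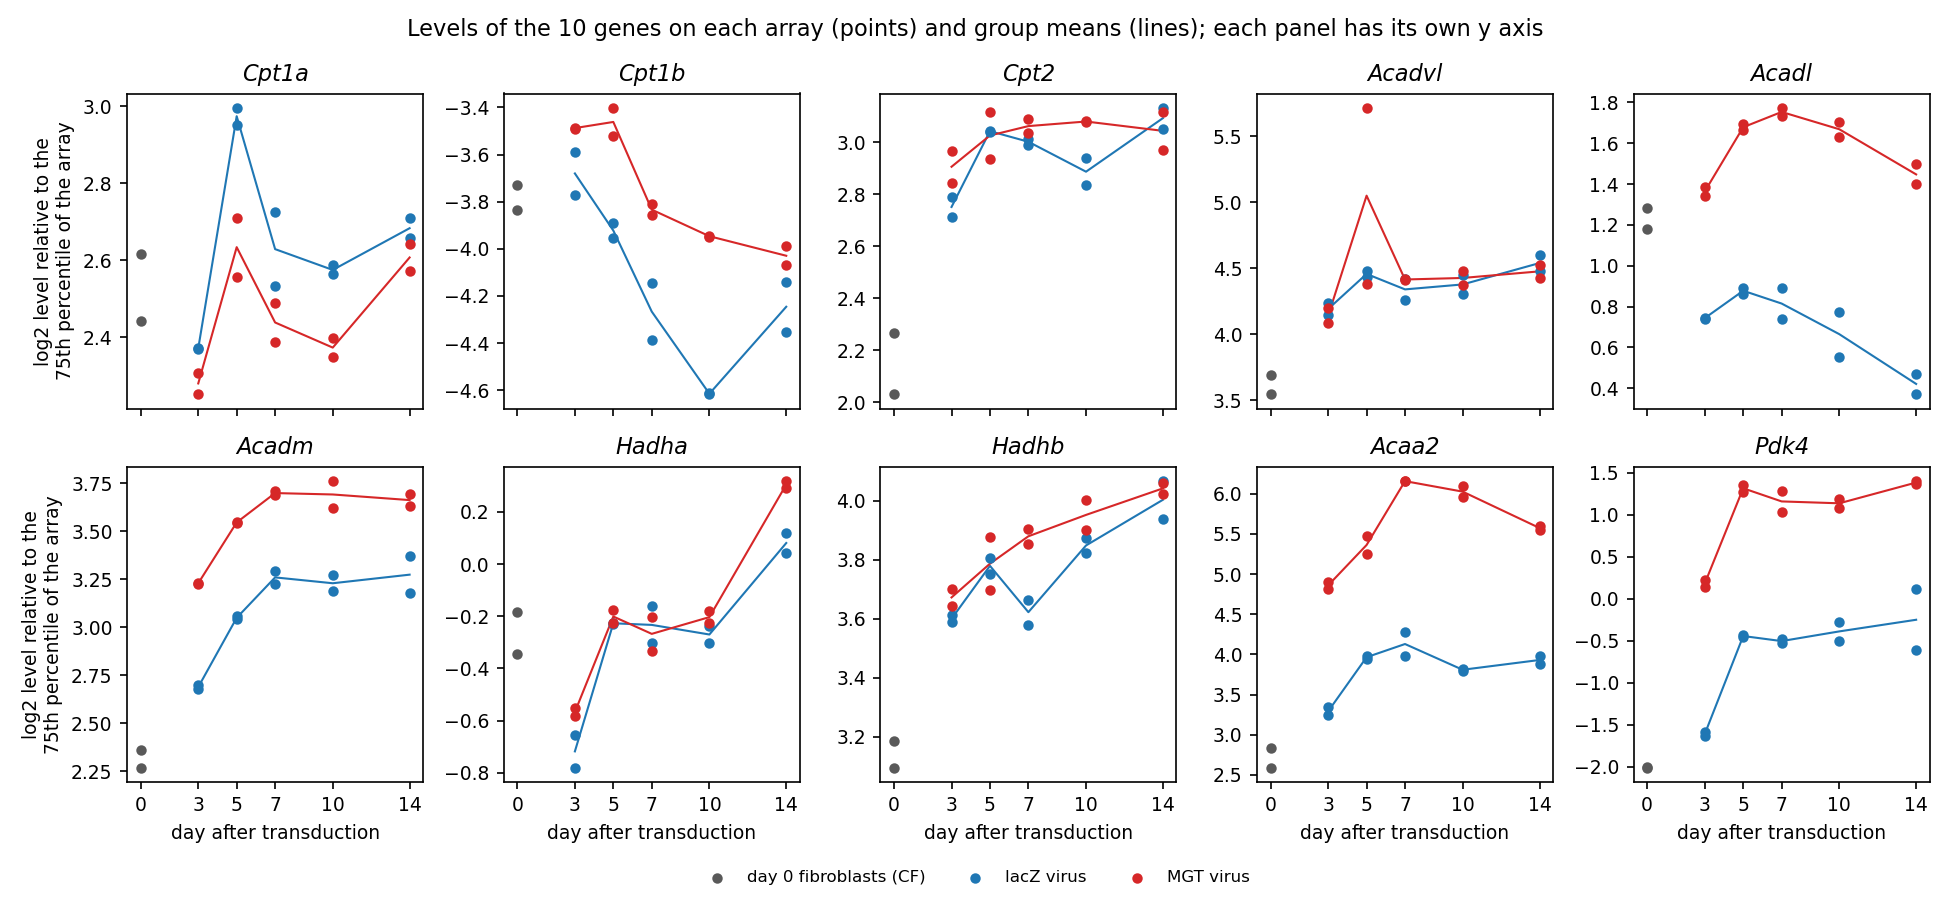
Level of each of the 10 genes on every array (points, log2 relative to the array's 75th percentile) against the day after transduction, for day 0 fibroblasts (grey), lacZ (blue) and MGT (red), with lines through the means of 2 arrays; each panel has its own axis. Acaa2, Pdk4, Acadl and Acadm keep the red points above the blue ones on every day, and the red Acadvl points of day 5 lie far apart, at 4.38 and 5.72.

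Acaa2 encodes the mitochondrial 3-ketoacyl-CoA thiolase, which cleaves acetyl-CoA from the chain. Its probe lies at chr18:74965691-74965750 (mm9, plus strand), on the transcript NM_177470, and was spotted 10 times per array. Fibroblasts at day 0 read 2.84 and 2.59. With lacZ the arrays read 3.24 and 3.34 at day 3, 3.95 and 3.98 at day 5, 3.99 and 4.27 at day 7, 3.79 and 3.82 at day 10, and 3.87 and 3.99 at day 14. With MGT they read 4.91 and 4.81, 5.47 and 5.26, 6.16 and 6.16, 6.09 and 5.96, and 5.60 and 5.55 on the same days. Every MGT array was brighter than every lacZ array of any day, and every lacZ array was brighter than both day 0 arrays. The difference was 1.57, 1.40, 2.03, 2.22 and 1.64 at days 3, 5, 7, 10 and 14 (SE 0.11 each), and passed on all 5 days (adjusted p between 2.66e-09 and 2.49e-07). Averaged over the days it was 1.77 (SE 0.047, adjusted p = 1.46e-12), 1.48 within the slide of days 3 and 5 and 2.12 within the slide of days 7 and 10. The MGT level was highest at day 7, and the arrays of days 7 and 10, next to each other in the order of the groups, did not overlap.

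Pdk4 had the other large difference. Its probe lies at chr6:5433441-5433500 (mm9, minus strand), on NM_013743. Both day 0 arrays read -2.01. With lacZ the arrays read -1.64 and -1.59 at day 3, -0.43 and -0.45 at day 5, -0.53 and -0.48 at day 7, -0.27 and -0.50 at day 10, and 0.11 and -0.61 at day 14. With MGT they read 0.22 and 0.14, 1.28 and 1.36, 1.29 and 1.03, 1.19 and 1.08, and 1.40 and 1.37. Every MGT array lay above every lacZ array, the closest being the second MGT array of day 3 and the first lacZ array of day 14, whose fellow read -0.61. In day order the difference was 1.79, 1.76, 1.67, 1.53 and 1.64 (SE 0.17 each, adjusted p between 2.21e-06 and 7.98e-06). Averaged it was 1.68 (SE 0.075, adjusted p = 2.78e-10), 1.78 within the slide of days 3 and 5 and 1.60 within that of days 7 and 10. The change of the difference from day 3 to day 14 was -0.16 (SE 0.24, adjusted p = 0.66), and its sign was not stable: leaving out the second lacZ array of day 14 gave -0.52, which passed (adjusted p = 0.0139), and leaving out the first gave 0.20.

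The 3 acyl-CoA dehydrogenases, which take the first oxidation step on chains of different length, did not move alike. Acadl, the long-chain enzyme, was the member whose MGT difference passed the test for a change over time. Its probe lies at chr1:66877673-66877732 (mm9, minus strand), on NM_007381. At day 0 it read 1.28 and 1.18. With lacZ it read 0.74 and 0.75 at day 3, 0.89 and 0.86 at day 5, 0.74 and 0.89 at day 7, 0.55 and 0.78 at day 10, and 0.37 and 0.47 at day 14. With MGT it read 1.34 and 1.39, 1.66 and 1.69, 1.77 and 1.73, 1.63 and 1.70, and 1.5 and 1.40. The day 0 arrays thus lay between the viruses, above every lacZ array and below every MGT array. In day order the difference was 0.62, 0.80, 0.94, 1.00 and 1.03 (SE 0.078 each), and passed on all 5 days (adjusted p between 2.14e-07 and 4.65e-05). Averaged it was 0.88 (SE 0.035, adjusted p = 7.92e-11), 0.71 within the slide of days 3 and 5 and 0.97 within that of days 7 and 10. From day 3 to day 14 it grew by 0.41 (SE 0.11, adjusted p = 0.0155), in a comparison that spans slides and in which 27.6% of all genes were called. In that interval the lacZ level fell by 0.32 (SE 0.078, adjusted p = 0.00331) and the MGT level differed by 0.08 (adjusted p = 0.387). The growth did not pass without the first day 3 MGT array (0.38, adjusted p = 0.0526) or without the first day 14 MGT array (0.36, adjusted p = 0.065), nor from the deposited table (0.22, adjusted p = 0.456) or with normexp background correction (0.19, adjusted p = 0.467).

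Acadm, the medium-chain enzyme, had a smaller difference, between 0.39 and 0.54 by day. Its probe lies at chr3:153585670-153585729 (mm9, minus strand), on NM_007382. Day 0 read 2.36 and 2.27. With lacZ it read 2.68 and 2.70 at day 3, 3.06 and 3.04 at day 5, 3.23 and 3.29 at day 7, 3.19 and 3.27 at day 10, and 3.37 and 3.18 at day 14. With MGT it read 3.23 and 3.23, 3.55 and 3.54, 3.69 and 3.71, 3.76 and 3.62, and 3.69 and 3.63. Both viruses thus rose along the same course, with MGT above lacZ on each day. The difference was 0.54, 0.50, 0.44, 0.46 and 0.39 at days 3, 5, 7, 10 and 14 (SE 0.07 each, adjusted p between 5.99e-05 and 0.000528). Averaged it was 0.47 (SE 0.031, adjusted p = 1.98e-08), 0.52 within the slide of days 3 and 5 and 0.45 within that of days 7 and 10. Its change from day 3 to day 14 was -0.15 (SE 0.099, adjusted p = 0.279), and its sign was not stable: it was 0.21 with normexp and 0.25 from the deposited table. The day 14 difference was 0.72 with normexp and 0.79 from the deposited table.

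Acadvl, the very-long-chain enzyme bound to the inner membrane, did not differ by more than its spread. Its probe lies at chr11:69823722-69823781 (mm9, minus strand), on NM_017366. Day 0 read 3.69 and 3.54, and the other arrays lay between 4.09 and 4.60 apart from 1 MGT array of day 5 at 5.72, whose fellow read 4.38. The gap within that group was 1.33, against a median gap of 0.11 within the groups for this gene, and the spot was neither saturated nor an outlier by the scanner software. MGT and lacZ arrays overlapped on all 5 days. The averaged difference was 0.12 (SE 0.12, adjusted p = 0.414), and -0.01 without that array. Without its fellow it was 0.25 and passed (adjusted p = 0.000126), so both arrays of that group decided the call.

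The carnitine palmitoyltransferases went different ways. Cpt1a, the broadly expressed form, was the member that was lower with MGT. Its brighter probe lies at chr19:3385374-3385433 (mm9, plus strand), on NM_013495. Day 0 read 2.62 and 2.44. With lacZ it read 2.37 and 2.37 at day 3, 2.95 and 3.0 at day 5, 2.53 and 2.72 at day 7, 2.59 and 2.56 at day 10, and 2.71 and 2.66 at day 14. With MGT it read 2.31 and 2.25, 2.56 and 2.71, 2.49 and 2.39, 2.35 and 2.40, and 2.64 and 2.57. Both MGT arrays lay below both lacZ arrays on each of the 5 days, as for 17.3% of all genes. The averaged difference was -0.18 (SE 0.035, adjusted p = 0.000531), -0.22 within the slide of days 3 and 5 and -0.20 within that of days 7 and 10. Of single days only day 5 passed (-0.34, SE 0.078, adjusted p = 0.0037), and it did not pass without the first MGT array of that day. At day 14, where the difference was -0.08, its sign turned under quantile normalization (0.029) and with scaling over probes above background on every array (0.036). A second probe of the same transcript, at chr19:3384060-3384119, read lower and did not pass in a fit of all probes (-0.05, SE 0.047, adjusted p = 0.356). That probe also went against the brighter one over time: from day 0 to day 14 with lacZ it changed by -0.57 (adjusted p = 0.000454), and the brighter probe by 0.15 (adjusted p = 0.13 in the same fit).

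Cpt1b, the muscle form, was dim on these arrays and was nevertheless brighter with MGT on both of its probes. The probe used for the gene lies at chr15:89247106-89247165 (mm9, minus strand), on NM_009948, and was well above background on 20 of 22 arrays, the 2 others being 1 each of day 10 and day 14 lacZ. Day 0 read -3.84 and -3.73. With lacZ it read -3.59 and -3.77 at day 3, -3.89 and -3.95 at day 5, -4.15 and -4.39 at day 7, -4.62 and -4.61 at day 10, and -4.35 and -4.14 at day 14. With MGT it read -3.49 and -3.49, -3.52 and -3.40, -3.81 and -3.86, -3.94 and -3.95, and -3.99 and -4.07. MGT lay above lacZ on each day, and under both viruses the level was lower at day 14 than at day 3. The difference passed on days 5, 7 and 10, at 0.46, 0.43 and 0.67 (adjusted p = 0.00133, 0.00208 and 6.43e-05). On days 3 and 14 it was 0.19 and 0.22 and did not pass (adjusted p = 0.141 and 0.0688). The day 14 difference passed as higher in 7 other settings (0.18 to 0.62), among them the deposited table (0.29, adjusted p = 0.0113), and was -0.25 with normexp (adjusted p = 0.301). Averaged it was 0.39 (SE 0.041, adjusted p = 1.81e-06), 0.33 within the slide of days 3 and 5 and 0.55 within that of days 7 and 10. With normexp background correction the averaged difference was 0.13 and did not pass (adjusted p = 0.225).

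The other Cpt1b probe lies at chr15:89246836-89246895 and was well above background on 17 arrays. In the fit of all probes it was higher with MGT by 0.72 at day 5 (adjusted p = 0.00673) and 0.70 at day 7 (adjusted p = 0.00766), and by 0.31 at day 3 (adjusted p = 0.265). Of the day 5 lacZ arrays, 1 of 2 was well above background. It was not well above background on either lacZ array of days 10 and 14, so no level is given there. At day 10 its difference did not pass (adjusted p = 0.0644) and no fold is given. For day 14 a bound sets the MGT mean against the higher of the dim probe's own signal and the lowest signal above background on each array. By that bound this probe was at least 1.79-fold higher with MGT on that day. The limma adjusted p of 0.000424 is that of its measured difference, not of the bound. The probe used for the gene was at 0.22 on that day and did not pass (adjusted p = 0.0688). Slide and virus cannot be told apart there.

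**Figure D2:**
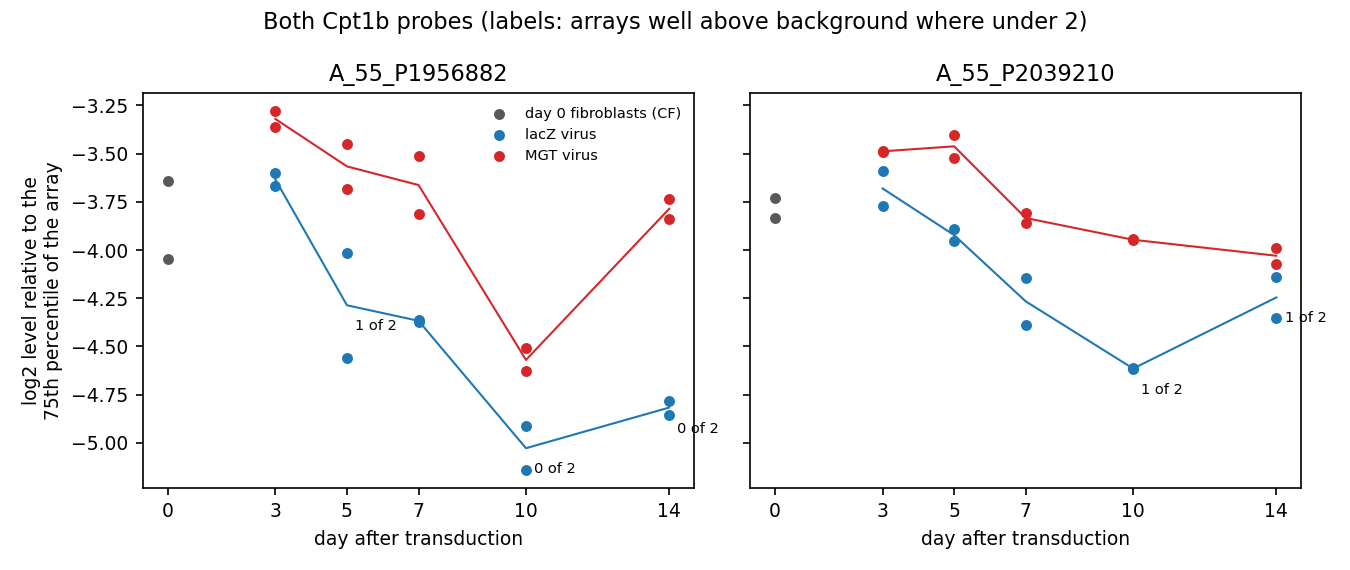
Level of both Cpt1b probes on every array (points, log2 relative to the array's 75th percentile) against the day after transduction, for day 0 fibroblasts (grey), lacZ (blue) and MGT (red), with lines through the means of 2 arrays. Small labels give the arrays well above background where these were under 2 of 2. The probe on the left was above background on 0 of 2 lacZ arrays at days 10 and 14, so no order is read there. MGT lies above lacZ on each day on the right probe, and on days 3, 5 and 7 on the left probe.

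Cpt2, the inner membrane enzyme, was above day 0 on every later array of its brighter probe, and its averaged MGT difference did not pass. Its brighter probe, at chr4:107576591-107576650 (mm9, minus strand), on NM_009949, read 2.27 and 2.03 at day 0 and between 2.71 and 3.13 on every later array. The averaged difference was 0.07 (SE 0.039, adjusted p = 0.141), and its second probe, at chr4:107580325-107580384, read 0.11 (SE 0.076, adjusted p = 0.234). The brighter probe passed under quantile normalization (0.15, adjusted p = 0.00234), with scaling over probes above background on every array (0.15, adjusted p = 0.00323) and in the deposited table (0.11, adjusted p = 0.026). MGT arrays lay above lacZ arrays on 3 of 5 days and overlapped them on the others.

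The trifunctional protein joins the hydratase and dehydrogenase of its alpha subunit, Hadha, with the thiolase of its beta subunit, Hadhb, for long chains. Hadha, probed at chr5:30446215-30446274 (mm9, minus strand, NM_178878), read -0.34 and -0.18 at day 0, -0.78 to 0.12 with lacZ and -0.58 to 0.32 with MGT. Hadhb, probed at chr5:30510925-30510984 (mm9, plus strand, NM_145558), read 3.1 and 3.19 at day 0, 3.58 to 4.07 with lacZ and 3.64 to 4.06 with MGT. Each was above lacZ on 3 of 5 days and overlapped it on the other 2. The averaged difference was 0.087 for Hadha (SE 0.032, adjusted p = 0.0322) and 0.096 for Hadhb (SE 0.032, adjusted p = 0.0175). Removing any 1 of 10 arrays ended the averaged Hadha call (adjusted p of 0.0528 to 0.0759), as did array weights (0.0921) and the replicate block within slide (0.0721). Hadha passed on day 14 alone (0.22, adjusted p = 0.022), which 8 of 34 settings ended, among them leaving out the second lacZ array or either MGT array of that day. Hadhb passed on day 7 alone (0.26, adjusted p = 0.0113), which 4 settings ended, among them leaving out the first lacZ or the first MGT array of that day. Within slides the averaged Hadha difference did not pass (0.09 for days 3 and 5, adjusted p = 0.185; 0.02 for days 7 and 10, adjusted p = 0.823). Hadhb passed within the slide of days 7 and 10 (0.18, adjusted p = 0.00877) and not within that of days 3 and 5 (0.04, adjusted p = 0.558). From the deposited table neither passed (adjusted p = 0.141 for Hadha and 0.0702 for Hadhb), and with normexp neither did (0.181 and 0.434).

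**Figure D3:**
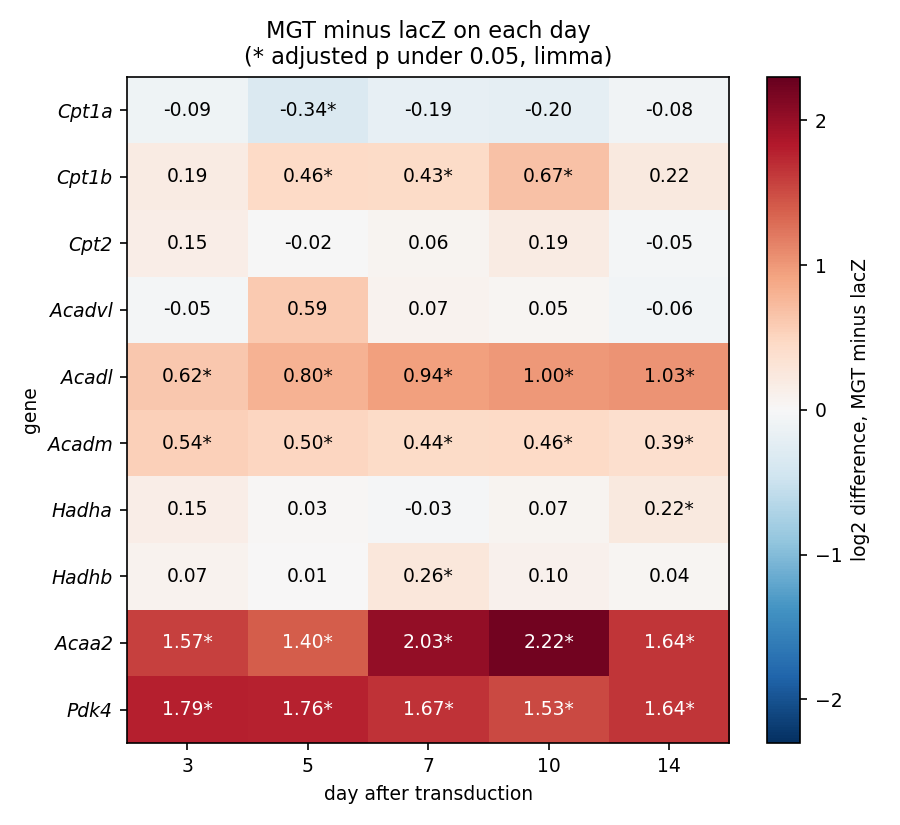
Difference between MGT and lacZ (log2, colour and number) for each of the 10 genes (rows) on each day after transduction (columns); an asterisk marks an adjusted p under 0.05 in limma. Acaa2, Pdk4, Acadl and Acadm carry an asterisk on all 5 days, with Acaa2 at 2.22 on day 10, and Cpt1a is the only row with a negative value on every day, although its day 14 value turns to 0.029 under quantile normalization.

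Day by day, 4 of the 10 genes were higher at day 3, when 12.3% of all genes were called higher and 18.1% lower (30.4% in all). On day 5 there were 5 higher and 1 lower, beside 16.2% and 21.9% of all genes (38.1% in all). Day 7 had 6 higher, beside 14.9% of all genes higher and 22.4% lower (37.3% in all). Day 10 had 5 higher, beside 15.2% and 24.2% (39.3% in all). Day 14 had 5 higher, beside 18.2% and 29.3% (47.6% in all). Acaa2, Pdk4, Acadl and Acadm passed on every one of these days. Cpt1b joined them at days 5, 7 and 10. Both MGT arrays lay above both lacZ arrays on all 5 days for Acaa2, Acadm, Acadl, Cpt1b and Pdk4, 5 of 10 genes, and for 10.7% of 17972 genes with values on these arrays. Of the 10 genes, 1 was called for a change of the difference from day 3 to day 14. The others changed by between -0.20 and 0.08, with adjusted p of 0.245 or more. Over the slide of days 3 and 5 alone 5 were higher and 1 lower (45.8% of all genes called), over that of days 7 and 10 there were 6 and 1 (50.2%), and over days 3 to 10 there were 6 and 1 (59%).

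**Figure D4:**
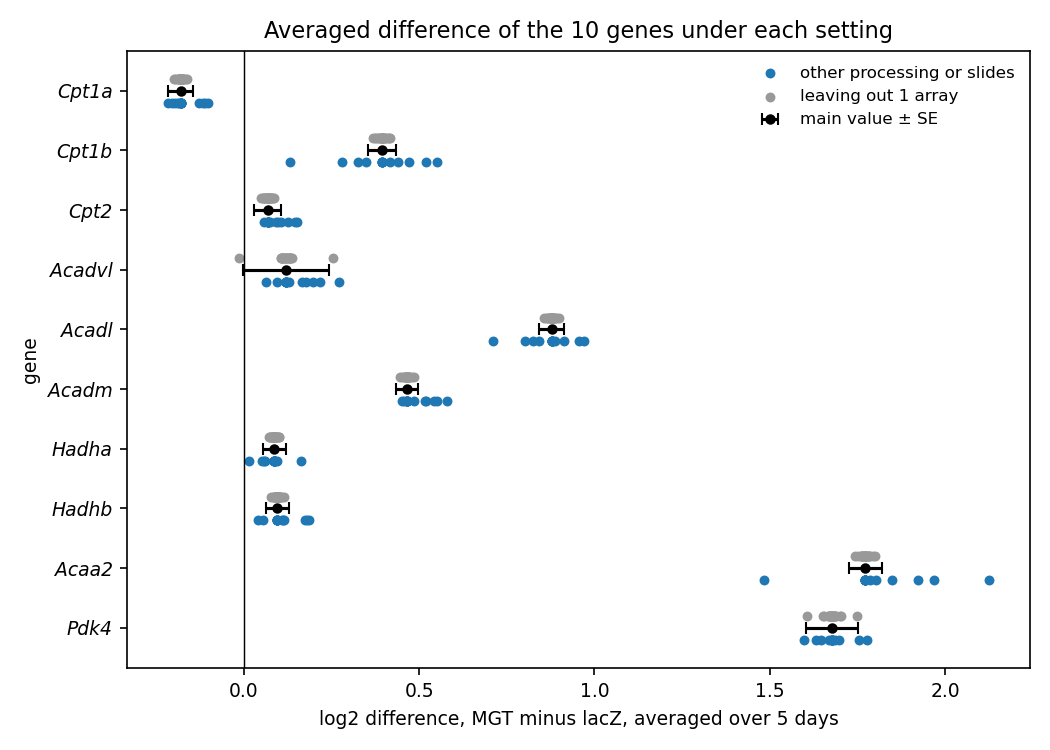
Averaged difference between MGT and lacZ (log2) of each of the 10 genes as reported (black, with its SE), under other processing or within slides (blue), and with 1 array left out (grey). Acaa2, Pdk4, Acadl and Acadm stay above 0 and Cpt1a below 0 throughout; Acadvl reaches -0.01 without 1 array of day 5.

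Much of the level of these genes also moved with time in both arms. Comparisons with day 0 share its 2 arrays, so their values stand side by side here and are not set against each other by a test. At day 3, on another slide than day 0, 4 of the 10 genes were higher and 2 lower with lacZ, beside 28.8% and 29% of all genes (57.8% called in all). With MGT 6 were higher and 2 lower, beside 29.3% and 33.1% of all genes (62.4% in all). Acaa2 was 0.58 above day 0 with lacZ and 2.14 with MGT, and Pdk4 was 0.40 above it with lacZ, which did not pass (adjusted p = 0.0578), and 2.19 with MGT. Acadl was 0.49 below day 0 with lacZ (adjusted p = 0.000133) and 0.13 above it with MGT (adjusted p = 0.153). Hadha was below day 0 under both viruses, by 0.45 with lacZ and 0.30 with MGT. Hadhb was above it under both, by 0.46 and 0.53. The brighter Cpt2 probe was above it by 0.60 and 0.76, but the second probe differed by 0.00027 with lacZ (adjusted p = 0.999) and by -0.11 with MGT (adjusted p = 0.614), so no direction is given for Cpt2 at day 3.

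At day 14 the lacZ arrays, which shared a slide with day 0, had 7 of the genes higher and 2 lower, beside 35.5% and 33.4% of all genes (68.9% in all). Pdk4 was 1.76 above day 0 (SE 0.17, adjusted p = 6.51e-07) and Acaa2 1.22 above it (SE 0.11, adjusted p = 2.76e-07). Acadm was higher by 0.96, Cpt2 by 0.94, Acadvl by 0.92, Hadhb by 0.86 and Hadha by 0.34. Acadl was lower by 0.81 (SE 0.078, adjusted p = 7.21e-07) and Cpt1b by 0.46. With MGT, on another slide, 8 were higher and 1 lower, beside 33.1% and 37.5% of all genes (70.5% in all). Pdk4 was 3.40 above day 0 (SE 0.17), Acaa2 2.86 (SE 0.11), Acadm 1.35, Hadhb 0.90, Cpt2 0.90, Acadvl 0.86, Hadha 0.57 and Acadl 0.22 (adjusted p = 0.0235). Cpt1b, counted as the lower gene, was at -0.25 by the probe used for it (adjusted p = 0.0279). Its other probe was at 0.06 (adjusted p = 0.794 in the fit of all probes), so no direction is given for Cpt1b here. The Acadl call was lost in 5 other settings and the Cpt1b call in 7, both also without the second day 0 array (adjusted p = 0.149 and 0.156). Cpt1a, 0.08 above day 0 by its brighter probe, did not pass under MGT (adjusted p = 0.392) nor, at 0.15, under lacZ (adjusted p = 0.0976). Its second probe was at -0.60 with MGT and -0.57 with lacZ (adjusted p = 0.00025 and 0.000454 in the fit of all probes). No direction is given for Cpt1a at day 14. The genes that were above day 0 in lacZ cultures at day 14 were thus Pdk4, Acaa2, Acadm, Cpt2, Acadvl, Hadhb and Hadha, in the order of their differences.

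From day 3 to day 14 the course was alike in sign for most of the genes in both arms. In each arm the day 3 and day 14 arrays lay on different slides, so time and slide cannot be told apart here. With MGT 6 were higher and 1 lower, beside 26.7% and 27.5% of all genes (54.2% in all). With lacZ 7 were higher and 2 lower, beside 29.3% and 27.5% (56.8% in all). Pdk4 was higher by 1.20 with MGT and 1.36 with lacZ, Hadha by 0.87 and 0.80, Acaa2 by 0.71 and 0.64, Acadm by 0.43 and 0.59, and Hadhb by 0.37 and 0.40. The Acadm difference in the lacZ arm was 0.21 with normexp and 0.13 in the deposited table and did not pass there (adjusted p = 0.301 and 0.494). Cpt1a counts as higher in both arms by its brighter probe (0.33 and 0.31), but its second probe changed by -0.32 with MGT (adjusted p = 0.0279) and by -0.24 with lacZ (adjusted p = 0.0765), so no direction is given for it. Cpt1b fell by 0.54 with MGT and by 0.57 with lacZ. Acadl fell with lacZ only, and the test of that difference between the arms is the growth of 0.41 given above. When only the arrays compared entered the fit, 4 of the genes in place of 9 passed in the lacZ arm.

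The genes that supply, follow and control these enzymes differed in both directions with MGT, each gene taken by its brightest probe. Of 8 fatty acid uptake and binding genes 1 was higher and 6 were lower, with a median of -0.50 on the log2 scale. Fabp3, the fatty acid binding protein of heart and muscle, was higher by 1.74 (SE 0.053, adjusted p = 4.94e-12). Slc27a6, a fatty acid transporter, was at -2.52 (SE 0.11, adjusted p = 3.1e-10) and above background on 9 of 10 MGT arrays, and Fabp4, the adipocyte binding protein, was at -0.85 (SE 0.067). Of 7 measured genes of acyl-CoA synthesis and hydrolysis 1 was higher and 6 were lower (median -0.17). The synthetase Acsl1, which makes the acyl-CoA that Cpt1 uses, was higher by 1.36 (SE 0.057, adjusted p = 1.38e-10), and the thioesterases Acot2 and Acot1, which split acyl-CoA, were at -1.19 and -0.52. The Acsl1 level was 2.68 and 2.46 at day 0, 1.34 to 1.96 on the lacZ arrays and 2.44 to 3.46 on the MGT arrays.

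Of 5 other measured carnitine shuttle genes 2 passed, both as lower, Cpt1c (-0.23) and the carnitine transporter Slc22a5 (-0.14). Of 14 other mitochondrial beta-oxidation genes 4 were higher and 5 lower, with a median of 0.01, led by Acad10 (-0.35), Acat1 (0.32) and Acadsb (0.29). The electron transfer flavoprotein, which takes electrons from the acyl-CoA dehydrogenases, had its subunit Etfa higher (0.17, SE 0.033) and Etfb at -0.08 (adjusted p = 0.0906). Etfdh, the separate enzyme that takes electrons from the flavoprotein, was higher by 0.30 (SE 0.04). The malonyl-CoA genes, which set the brake on Cpt1, were split. Acaca, the cytosolic acetyl-CoA carboxylase of lipid synthesis, was at -0.64 (SE 0.034, adjusted p = 1.72e-09), Acacb, the mitochondrial form, at 0.44 (SE 0.045, adjusted p = 1.43e-06), and Mlycd, which degrades malonyl-CoA, at 0.03 (adjusted p = 0.508). Acacb was at -0.08 on day 3 (adjusted p = 0.663) and 0.99 on day 14 (adjusted p = 3.9e-06). Of 10 peroxisomal genes 3 were higher and 2 lower (median -0.06), with Hsd17b4 at 0.20 and Crot at 0.13.

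Around Pdk4, 6 of 11 genes of the pyruvate dehydrogenase complex and its regulators were higher and 1 was lower (median 0.11). Both phosphatases that oppose the kinases were among those higher, Pdp2 by 0.86 (SE 0.08, adjusted p = 5.96e-07) and Pdp1 by 0.63 (SE 0.035, adjusted p = 2.73e-09), and so was the kinase Pdk2, by 0.56 (SE 0.052). The kinases Pdk1 (-0.03, adjusted p = 0.822) and Pdk3 (-0.10, adjusted p = 0.0503) did not pass.

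Of 20 regulators of fatty acid oxidation genes 6 were higher and 10 lower (median -0.09, beside -0.09 for all genes). For 3 of them, Ppara, Rxra and Rxrg, probes of the same gene passed in opposite directions, and without these 5 of 17 were higher and 8 lower (median -0.08). The coactivator Ppargc1b, which docks on nuclear receptors, was higher by 2.17 (SE 0.12, adjusted p = 3.28e-09) and above background on all MGT and 9 of 10 lacZ arrays. Its relative Ppargc1a was above background on all 10 MGT and 5 of 10 lacZ arrays. At day 3 Ppargc1a was lower with MGT (-1.10, SE 0.20, adjusted p = 0.00112), with -4.21 and -3.83 against -2.92 on both lacZ arrays, and it passed as higher on the later days, when the MGT arrays read -3.28 to -1.74 and the lacZ arrays -6.10 to -3.95. The nuclear receptor Esrrg was above background on all 10 MGT and 2 of 10 lacZ arrays and passed as higher (adjusted p = 1.64e-10). Pparg was at 0.43 (SE 0.034), Ppard at -0.20 (SE 0.036) and Esrra at -0.10 (SE 0.026), each past the test. For Ppara, the receptor best known for these genes, the brightest probe was at -0.28 (adjusted p = 0.0421 in the fit of all probes) and the 2 others at 1.53 and 1.43 (adjusted p = 7.23e-08 and 1.94e-09), and no direction is given for it, Rxra or Rxrg.

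Of 11 other PPAR target genes 2 were higher and 8 were lower, with a median of -0.81. Pdk4, also a PPAR target, was higher and was counted with the 10 genes, so these counts depend on where a target was listed. The uncoupling proteins Ucp3 (-1.01, SE 0.068) and Ucp2 (-0.99, SE 0.076) were among those lower. Of 5 ketone body genes, Acat1 included, 2 were higher and 1 lower. Of 15 genes of mitochondrial mass 8 passed, all as lower (median -0.15), led by the chaperones Hspa9 (-0.71) and Hspd1 (-0.51) and the import receptor Tomm20 (-0.35). Of 9 lipogenesis genes 1 was higher and 5 were lower, with Gpam, which starts triglyceride synthesis, at 2.01 (SE 0.037), the elongase Elovl6 at -0.74 and the fatty acid synthase Fasn at -0.60. These lists and the 10 genes are described by their counts and medians beside the share of all genes called, 63.9%, and no list was tested as a set.

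**Figure D5:**
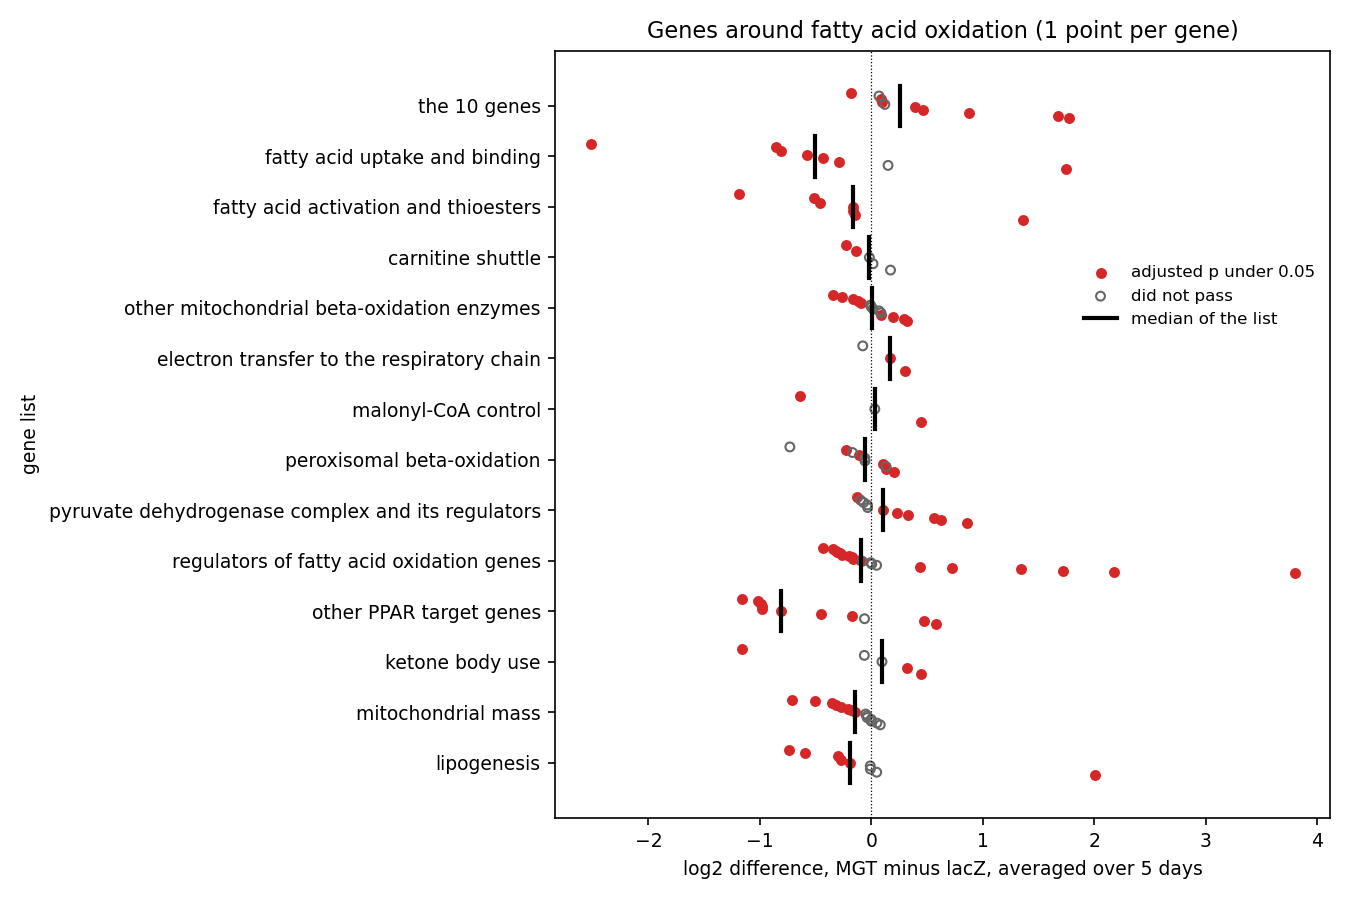
Averaged difference between MGT and lacZ (log2) of each measured gene (points) of the 10 members and of 13 lists around fatty acid oxidation; filled points have an adjusted p under 0.05 in limma, and bars mark each list's median. The 10 members have a median of 0.26, the other mitochondrial beta-oxidation enzymes lie close to 0, and the other PPAR target genes have a median of -0.81.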

How the data were processed

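Total RNA of 22 samples in 11 groups of 2 was hybridised to Agilent 1-colour mouse arrays, and groups follow the labels. Per the file headers, Agilent Feature Extraction 10.7.3.1 gave the deposited processed spot intensity, with background subtracted and no scaling between arrays, beside the mean and local background intensity. The authors' deposited normalized table holds 1 intensity per gene name; its processing is not stated beyond limma, named in the submitters' processing notes, and it served as an alternative.

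From these, log2 of the processed intensity minus the 75th percentile of each array's 59305 non-control spots was used. Between 48.4% and 71.0% of spots were well above background, 0 were saturated, and outlier spots were left out. Probes entered when some group had both of its arrays well above background (38813 of 55681), and a gene was given its brightest kept probe (18061 genes). Of the 55681 probes 26050 were named through their accession, 3205 through a symbol and 930 through a synonym. One limma 3.58.1 model (R 4.3.3, lmFit and eBayes, 11 group means) gave p-values, adjusted by Benjamini-Hochberg within each comparison at a threshold of 0.05, and was checked on simulated data. With 2 arrays a group, their number limits precision. The alternatives were normexp (offset 50), quantile normalization, the deposited table, other filters and scaling, the mean over probes, only the arrays compared, replicate blocks, array weights, trend with robust eBayes, values within slides, and leaving out each array.

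The members and lists were chosen with earlier results of these data known. All members and their probes are named, with up to 3 called genes per list by size, every gene of lists of 4 or fewer, 7 regulators, up to 2 markers of a list, and Mef2c; Pdk1, Pdk3, Rxra, Rxrg and further markers were named after their values were seen. Some genes that this rule names are not reported here. Promoters came from RefSeq, for 8 of 10 members; those of the others are not used here.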

Additional observations from a re-analysis of the deposited data

Results flagged for a closer look

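The difference between MGT and lacZ in Acadl was larger at day 14 than at day 3 by 0.41 on the log2 scale (SE 0.11, limma, Benjamini-Hochberg adjusted p = 0.0155), by a test of that change itself. It was 0.62 at day 3 and 1.03 at day 14, with both MGT arrays above both lacZ arrays on each day. The comparison spans slides, and 27.6% of all genes were called in it. The call was lost in 4 of 34 other settings, among them normexp and the deposited table.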

How the results depend on the processing

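Under 34 other settings, 22 of them leaving out 1 array, the averaged differences of Acaa2, Pdk4, Acadl, Acadm and Cpt1a kept their sign and their call. The number of genes called in the averaged comparison went from 8 to 5 with normexp, at day 7 from 6 to 3 with normexp, and at day 14 from 5 to 3 with only the arrays compared, as did lacZ day 14 against day 3 from 9 to 4. For the change from day 3 to day 14 it went from 1 to 0 with normexp and with the deposited table, and was 0 to 2 when 1 array was left out: 0 without the first day 3 MGT or the first day 14 MGT array, and 2 without the second day 14 lacZ array. Signs turned for Acadvl without the second day 5 MGT array (-0.012 averaged and -0.072 at day 5, against 0.25 and 1.26 without the first), for Cpt1a at day 14 with quantile normalization (0.029) and with scaling over probes above background on every array (0.036), for Cpt1b at day 14 with normexp (-0.25, against 7 settings in which it passed as higher), for the change of Acadm from day 3 to day 14 with normexp (0.21) and the deposited table (0.25), and for the change of Pdk4 with normexp (0.11), the deposited table (0.18) and without the first day 14 lacZ array (0.20, against -0.52 without the second). Against day 0 at day 14, Cpt1a turned with the mean over probes (-0.21 with lacZ and -0.26 with MGT, both past the test) and, with MGT, without the second day 0 array (-0.0086, against 0.16 without the first), and Cpt1b with lacZ turned with normexp (0.0076). The cause was not tested. Cpt1b did not pass at days 5, 7 and 10 with normexp. Acadm did not pass with normexp at days 5 and 7 (adjusted p = 0.0637 and 0.072) nor with only the arrays compared at days 10 and 14 (0.0609 and 0.118). Hadha lost its averaged call in 14 settings and its day 14 call in 8, and Hadhb its day 7 call in 4. The fall of Acadl with lacZ from day 3 to day 14 did not pass with normexp or the deposited table (adjusted p = 0.606 and 0.604).

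Same-numbered MGT and lacZ arrays did not deviate together (correlations of -0.03 to 0.09 over genes), and they were not treated as pairs. With 2 arrays a group this cannot show whether same-numbered samples came from the same cells, and the labels do not say. When the replicate number was a block, 8 of the 10 genes were called, and 11536 of all genes in place of 11543. With the replicate block within slide Hadha lost its averaged call (adjusted p = 0.0721) and its day 14 call (0.109). Slide as a random block was not run, because each group lay on 1 slide. With no filter 14033 genes were called. The 2 arrays of a group and, for Cpt1b, signal near background limit what can be seen.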

Other observations

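Over the 11 group means, the course of Acaa2 was closest to that of Inha (Pearson r = 0.990), Hip1 (0.983) and Phkg1 (0.983), among 12392 named genes above background on all arrays. Pdk4 was closest to Pip4k2a (0.986), Prr15 (0.981) and Ndrg3 (0.981), Acadl to Erbb2 (0.991), Adcy6 (0.985) and Tspan9 (0.980), and Acadm to Rab40b (0.995), Hes6 (0.987) and Sesn3 (0.985). Among the 10 genes, Acadm and Pdk4 (0.957), Acaa2 and Pdk4 (0.957), Acaa2 and Acadm (0.923), and Hadhb and Cpt2 (0.902) ran most alike. Hadha and Hadhb, the subunits of 1 protein with neighbouring start sites, had r = 0.516, and Acadl and Hadhb 0.074. All of these values share the same arrays and are descriptions over 11 points.

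Probes of 2 other regulators disagreed in direction as those of Ppara did. The brighter Rxra probe was at 0.72 and the other at -0.47, and the brighter Rxrg probe was at -0.43 and the other at 5.34, each past the test in the fit of all probes.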
